A study of Danio rerio with 3 samples.

Results

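Collagens, laminins, and fibronectins form most of the extracellular matrix, and 35 of their genes were measured among 25163 genes with a signal well above background on at least 1 array. The genes were taken by a rule on symbols, which was set with earlier results of these data known. Each zebrafish gene whose symbol marks it as a collagen chain, a laminin chain, or fibronectin was taken. Among probes that the scanner software marked as an outlier on no array, the one with the highest mean signal stood for the gene. This left out a brighter, marked probe of *col1a1a*, *col1a1b*, *col11a1b*, *col27a1a*, and *lamc1*. Of 76 such symbols in the reference table, 41 had no named probe and were not analysed here. All 35 measured genes were well above background on all 3 arrays.

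Collagens are triple helices that assemble outside the cell, and their classes differ in what they build. Fibril-forming collagens give the rope-like fibers of skin, bone, cartilage, and scar, network and basement membrane collagens build sheets, and FACIT collagens sit on the surface of fibrils. Laminins are trimers of an alpha, a beta, and a gamma chain that lay down basement membranes under epithelia and around vessels and muscle, while fibronectin is a soluble plasma protein made by hepatocytes and also a cell-bound fibril. In injured liver, hepatic stellate cells are the best known source of type I collagen, and its accumulation is fibrosis. The paper stained larvae with Sirius red and reported no significant fibrosis in the groups it compared. The values here are RNA and do not measure deposited collagen.

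RNA labelled as liver came from larval zebrafish of the AB strain at 15 dpf and was hybridized to 3 single-colour Agilent arrays, 1 per group. The control larvae were fed AP100 at 30 mg per 100 fish each day from 5 dpf for 10 days. The HCD larvae received 180 mg of AP100 with 4% cholesterol on the same schedule, and the BBR larvae received this HCD together with 5 μM berberine, a plant isoquinoline alkaloid. How many livers each array stands for is not given in the sources used here, and no array was repeated, so no P value exists and differences are called at 2-fold only. The control and BBR arrays shared slide 1, whereas the HCD array lay on slide 2, so that the HCD and the slide cannot be told apart in either comparison with HCD. The BBR array against the control array is a comparison within 1 slide, but of fish that differ in both diet and BBR.

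Of the spots, 88.5% to 92.3% were well above background on an array and 0 were saturated. Outlier marks fell on 1510 spots of the control array, 1665 of the HCD array, and 20 of the BBR array. For each brighter probe left out for a mark, the mark fell on the HCD array. Spots of the same probe on 1 array differed by an SD of 0.09 to 0.19 on the log2 scale, which gives an SD of 0.26 for a difference between single spots of HCD and control and of 0.20 for BBR and HCD. Different probes of 1 matrix gene varied more, with a pooled SD of 0.43 for HCD against control and 0.60 for BBR against HCD over 21 genes. These spreads are technical and do not include variation between fish.

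The tissue label was checked against cell type markers. The hepatocyte marker *fabp10a* had intensities of 51272 in control, 49183 in HCD, and 54911 in BBR, and 8 of 8 measured hepatocyte genes were well above background on all arrays. Genes that define other tissues were also detected. All 9 measured exocrine pancreas genes, 8 of 8 for epidermis, 7 of 7 for skeletal muscle, and 8 of 8 for cartilage and bone were well above background on each array. Of all spots, 88.5% to 92.3% were so too, and these counts, also that for hepatocytes, therefore do not set a tissue apart. Some of the genes were bright. In control the pancreas gene *prss1* had 118162 and the muscle gene *ckma* 64239, beside a 75th percentile of 2007 on that array. The cartilage genes *matn1*, a cartilage matrix protein, and *cnmd*, or chondromodulin, reached 20432 and 6143 in control. Others of that list were dim, as *sp7* and *runx2b* had 78.2 and 65.4. The RNA thus also held transcripts known from other tissues, and in such bulk RNA fewer cells of a type and less RNA per cell cannot be told apart.

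The comparison of HCD with control asks what the larger, cholesterol-rich ration does. In it 27 of the 35 genes were higher and 8 were lower in HCD, or 77.1% higher beside 37.9% of all genes. Their median log2 difference was 0.40 against -0.16 over all 24564 genes compared. All 13 fibril-forming collagens were higher, by 1.17-fold to 2.88-fold. At the 2-fold threshold, which 7.77% of all genes passed in either direction, 3 matrix genes were higher (8.57%) beside 3.71% of all genes, and 1 was lower (2.86%) beside 4.06%. Most of the differences were thus smaller than 2-fold. Of the 35 genes, 12 were in the brightest of 4 classes of mean signal that held equal numbers of genes, and the median log2 difference over all genes of that class was -0.05.

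**Figure D1:**
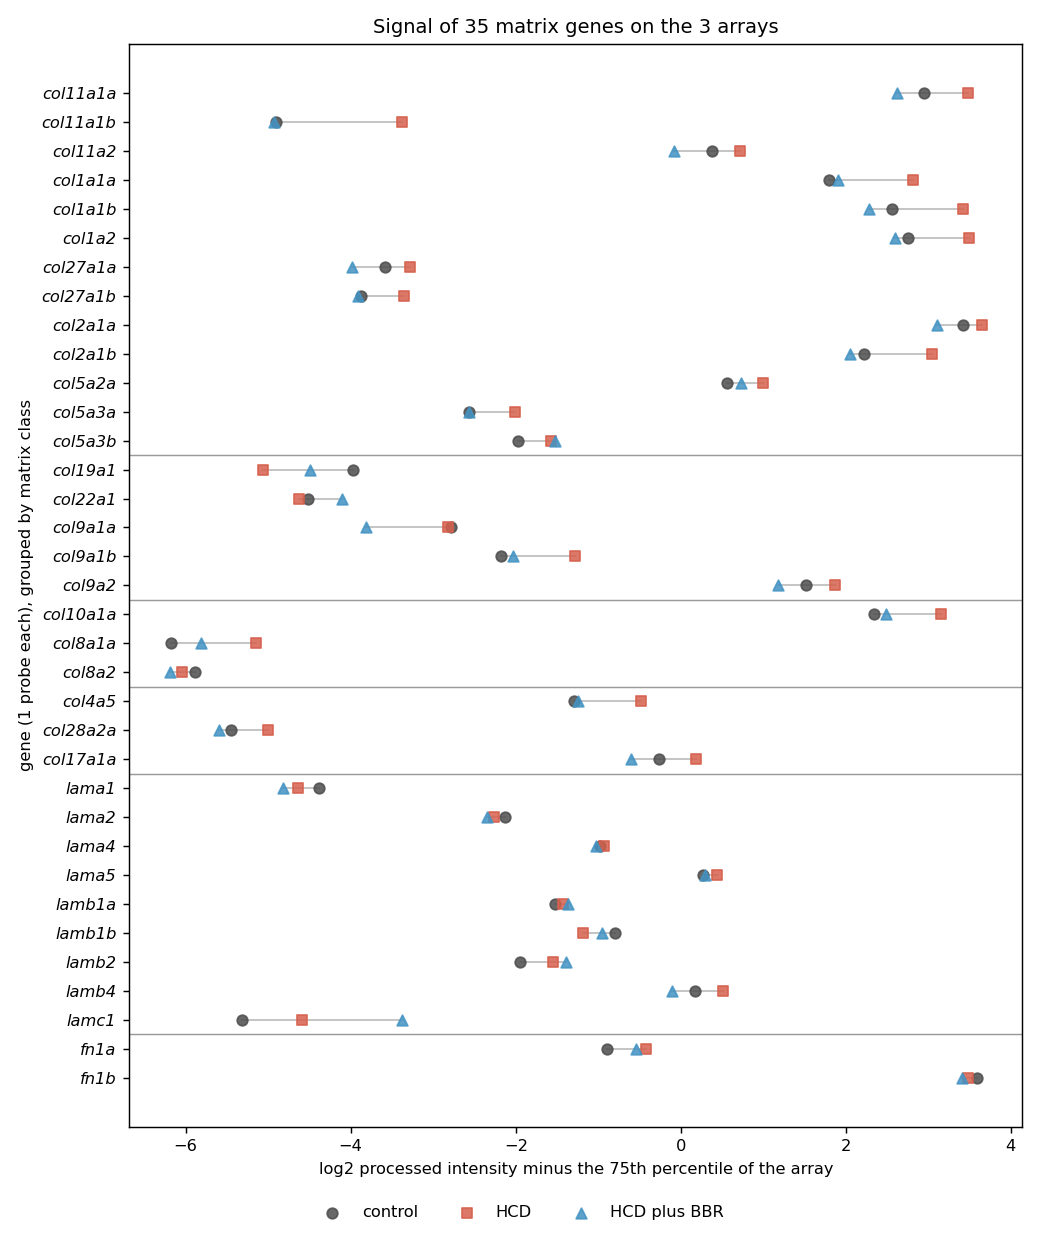
Signal of each of the 35 matrix genes on the control (circle), HCD (square), and HCD plus BBR (triangle) arrays, on the log2 scale with the array's 75th percentile subtracted, with 1 array per group and a line over the range of the gene. In the top block the HCD square lies to the right of the control circle for all 13 fibril-forming collagens, while most laminins and *fn1b* show narrow ranges.

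Type I collagen, the main collagen of bone, skin, and scar, is built in zebrafish from 3 chains, and all 3 were measured. *col1a1a* had processed intensities of 6995 in control, 14163 in HCD, and 8001 in BBR. It was 2.01-fold higher in HCD than in control. *col1a1b*, the second copy of the alpha 1 chain gene, had 11862, 21641, and 10385 in the same order, a 1.81-fold difference between HCD and control. *col1a2*, the alpha 2 chain that pairs with both, had 13481, 22644, and 12936 and was 1.67-fold higher in HCD. By the probe used for each of the 3 chains, the HCD array stood above the other 2 arrays, whose values lay within 1.22-fold of each other.

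The size of the type I difference varied with the probe. A brighter probe of *col1a1a* was left out because the scanner software marked it as an outlier on the HCD array. It read 11796, 14901, and 11112, a log2 difference of 0.33 between HCD and control, where the probe used gave 1.01. The other 2 usable probes of this gene gave 1.00 and 1.12. For *col1a1b*, a marked brighter probe gave 0.28 where the probe used gave 0.86, and another usable probe gave 1.08. For *col1a2*, another usable probe with 12368, 17824, and 12962 gave 0.52 where the probe used gave 0.74. All probes of type I collagen were higher in HCD, but with the marked probes kept *col1a1a* was no longer past 2-fold.

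Type II collagen is the fibril of cartilage and of the larval notochord sheath. *col2a1a*, the brightest gene of its class, had intensities of 21470 in control, 25311 in HCD, and 18369 in BBR, 1.17-fold higher in HCD than in control. Its copy *col2a1b* had 9343, 16716, and 8841, or 1.78-fold. Probes of these genes did not run the same way throughout. For *col2a1a* 2 other probes gave log2 differences of 0.66 and 0.72, but a dimmer one with 799, 454, and 1117 gave -0.82. For *col2a1b* a dim probe with 161, 102, and 296 gave -0.66 beside 0.46 and 0.83 for the others.

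Type XI collagen forms the core of cartilage fibrils. *col11a1b* showed the largest difference of all 35 genes between HCD and control, 2.88-fold, with 67.1 in control, 194 in HCD, and 69.9 in BBR. This is a dim probe, though all 3 values exceed the lowest well-above-background signal of 17.7 to 21.4. Its second probe, marked as an outlier on the HCD array, read 118, 216, and 95.3, a log2 difference of 0.87. Its copy *col11a1a* had 15442, 22519, and 13194 (1.45-fold), and *col11a2* had 2599, 3306, and 2028 (1.26-fold). Dimmer probes of *col11a1a* gave log2 differences of 1.02 and -0.17, so its direction was not the same on each probe.

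The remaining fibril-forming genes are given so that each member is accounted for. Type V chains, which set the diameter of type I fibrils, were 1.31-fold to 1.46-fold higher in HCD. *col5a2a* had 2949, 4034, and 3538, *col5a3a* had 339, 499, and 361, and *col5a3b* had 513, 677, and 745. The type XXVII genes *col27a1a* and *col27a1b*, of cartilage and notochord in fish, were 1.23-fold and 1.44-fold higher. A brighter probe of *col27a1a*, marked as an outlier on the HCD array, read 1431, 2245, and 1456, a log2 difference of 0.64. The probe used read 168, 207, and 135. In the whole class, 12 of 13 differences were larger than the SD between spots, and 9 of 13 were larger than the SD between probes of a gene. The share of all genes past these SDs was not counted, so these counts do not set the class apart. Of 18 other probes of these genes, 15 were higher in HCD, with a median log2 difference of 0.65.

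**Figure D2:**
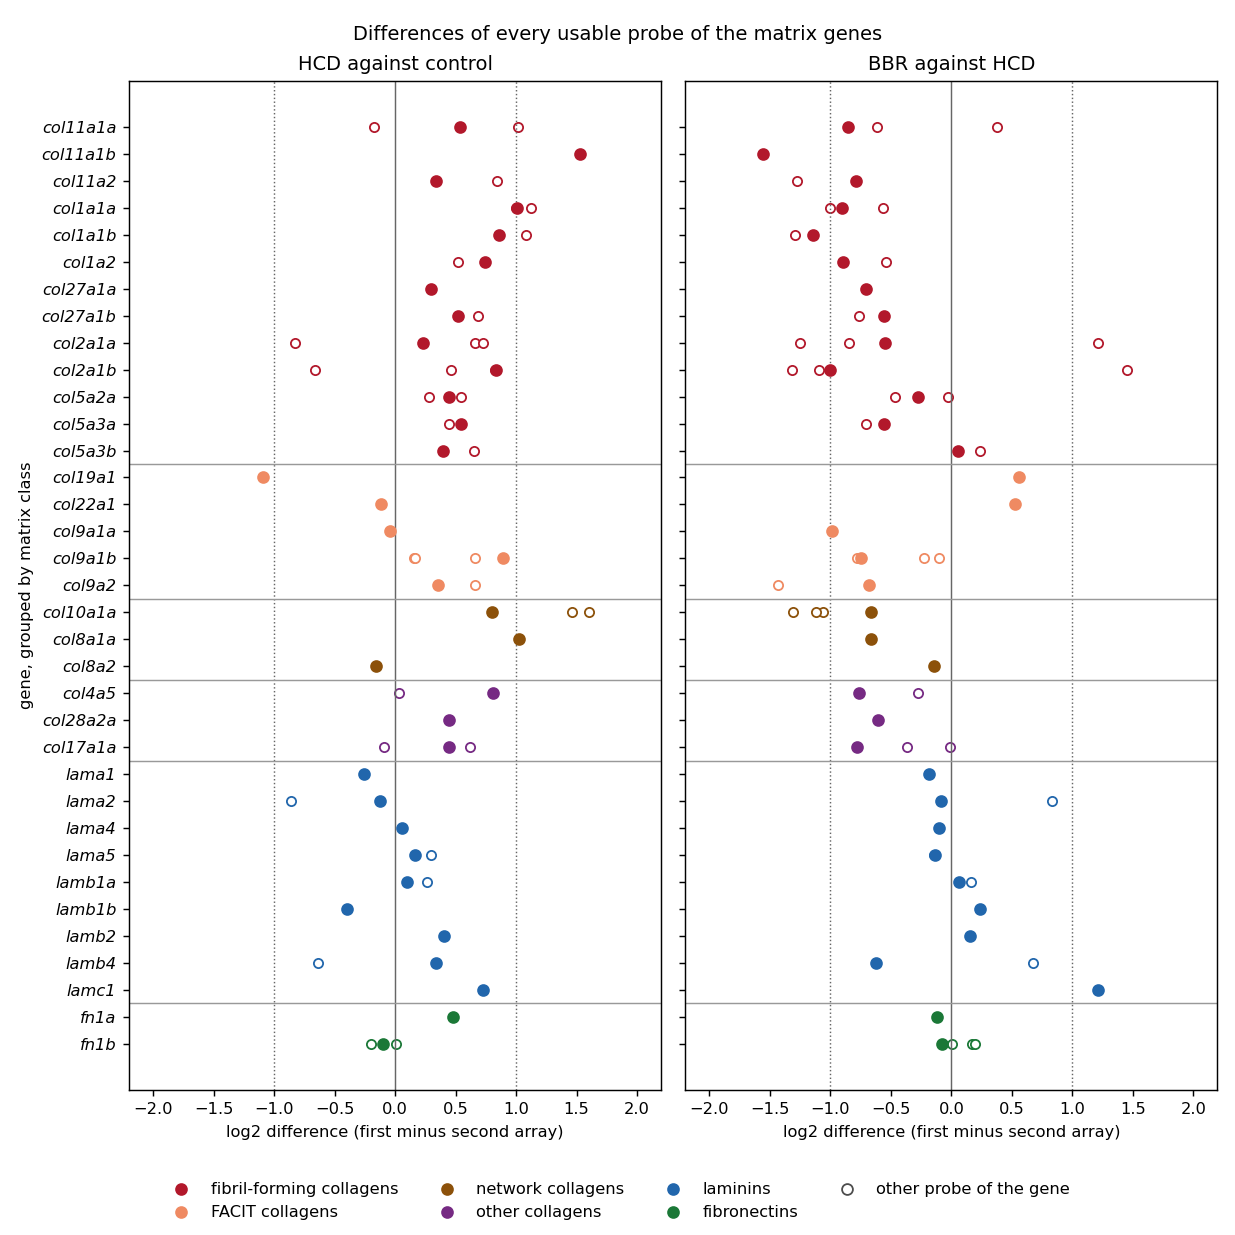
Log2 differences of each usable probe of the matrix genes for HCD against control (left) and BBR against HCD (right), with filled points for the probe that stands for the gene, open points for its other probes, and dotted lines at 2-fold. Open points of several genes, among them *col2a1a*, *col2a1b*, *col11a1a*, and *lamb4*, lie on the opposite side of 0 from the filled point of their gene in both panels.

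Of the network-forming collagens, *col10a1a* encodes type X collagen, a product of hypertrophic chondrocytes and, in fish, of bone-forming cells. It had 10200 in control, 17909 in HCD, and 11970 in BBR, and was 1.75-fold higher in HCD than in control. Dimmer probes of *col10a1a* gave larger differences, with 940, 2611, and 1271 for one and 248, 760, and 324 for another, or 1.46 and 1.61 on the log2 scale. *col8a1a*, type VIII collagen of vessels and the eye, was 2.03-fold higher at 27.8, 56.7, and 37.9, near the background limit. *col8a2* had 33.8, 30.5, and 29.2.

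*col4a5*, the one type IV gene with a named probe of 6 in the reference, encodes a chain of the basement membrane sheet. It had intensities of 821 in control, 1449 in HCD, and 906 in BBR, 1.75-fold higher in HCD. A dimmer probe of *col4a5* with 45.4, 46.8, and 41.0 differed by 0.03 on the log2 scale. *col17a1a*, the transmembrane collagen of hemidesmosomes that ties epidermal cells to their basement membrane, had 1671, 2290, and 1411, and 2 other probes gave 0.62 and -0.09 beside its 0.45. *col28a2a*, a beaded filament collagen, had 46.0, 63.1, and 44.1.

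The FACIT collagens did not share one direction. *col9a2*, a chain of the type IX collagen that coats cartilage fibrils and the brightest of the class, had 5732 in control, 7356 in HCD, and 4858 in BBR, 1.28-fold higher in HCD. *col9a1b* had 443, 827, and 521, while its copy *col9a1a* had 291, 285, and 152. *col19a1*, of basement membrane zones in mammals, was 2.13-fold lower in HCD than in control, with 128, 60.6, and 94.7, and was the only member past 2-fold in that direction. *col22a1*, found at tissue junctions such as that of muscle and tendon, had 87.7, 81.4, and 124.

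Most laminins were close to control on the HCD array, with a median log2 difference of 0.10. Of 9 laminins, 6 were higher, beside 37.9% of all genes. Past 2-fold in either direction were 0, beside 7.77% of all genes, and a list of 9 is too short for that count to set laminins apart. *lamc1*, at 0.73, exceeded the SD between probes of a gene, 0.43. Among the alpha chains, which bind the cell receptors, *lama1* had 96.4 in control, 81.1 in HCD, and 75.7 in BBR. *lama2*, the chain of muscle basement membrane, had 457, 422, and 420. *lama4*, of vessels, had 1016, 1062, and 1052, and *lama5*, of epithelia, had 2423, 2727, and 2632. Between HCD and control the alpha chains differed by 1.04-fold to 1.19-fold, and for *lama2*, *lama4*, and *lama5* the difference of the probe used was smaller than the spread between spots. A dim second probe of *lama2*, with 62.0, 34.3, and 64.6, gave log2 differences of -0.86 for HCD against control and 0.83 for BBR against HCD.

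The laminin beta chains were spread to both sides. *lamb1a* had 697, 751, and 831, and its copy *lamb1b* had 1159 in control, 885 in HCD, and 1103 in BBR. *lamb2* had 518, 691, and 813, and *lamb4*, a beta chain gene absent from the best known trimers, had 2262, 2881, and 1984. Among these 4 the log2 differences between HCD and control ran from -0.40 to 0.40, within the SD between probes of a gene. A dim probe of *lamb4* gave -0.64 where the probe used gave 0.34.

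*lamc1*, the gamma chain shared by most laminin trimers, had 50.5 in control, 84.1 in HCD, and 206 in BBR on the probe used. The brighter probe of *lamc1*, marked as an outlier on the HCD array, read 576, 914, and 964. Both were higher in HCD than in control, with log2 differences of 0.73 and 0.66. They part ways between BBR and HCD, where the first gave 1.21 and the second -0.01.

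Both fibronectin genes were measured. *fn1b* had 24116 in control, 22569 in HCD, and 22650 in BBR, and its 3 other probes stayed within 0.20 on the log2 scale in either comparison with HCD. *fn1a* had 1076, 1511, and 1474, or 1.40-fold higher in HCD than in control. A second probe of *fn1a*, marked as an outlier on the HCD array, gave a log2 difference of -0.34. The direction for *fn1a* therefore depends on the probe.

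The comparison of BBR with HCD asks what berberine does on top of the diet. On the BBR array 28 of the 35 genes were lower and 7 were higher than on the HCD array, or 20% higher beside 59.4% of all genes. Their median log2 difference was -0.56 against 0.10 over all 25041 genes compared. Past 2-fold were 5.85% of all genes in either direction. Of the 35, 3 were lower (8.57%) beside 1.33% of all genes, and 1 was higher (2.86%) beside 4.52%. The dimmest of the 4 signal classes held *lamc1*, the gene higher, and *col11a1b*, among those lower. In that class 11.0% of all genes were past 2-fold higher and 1.83% lower, and in the brightest class 0.94% and 0.45%. This comparison shares the HCD array with that of HCD and control, so a gene with a high value on that array is both higher against control and lower with BBR, and one comparison is no independent check of the other.

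The 3 genes past 2-fold lower were fibril-forming collagens. *col11a1b* was 2.95-fold lower in BBR than in HCD, *col1a1b* 2.21-fold lower, and *col2a1b* just over 2-fold lower. None of the 3 calls held under every setting or probe. The log2 difference of *col1a1b* was -0.42 on its brighter marked probe, used when outliers were kept, that of *col2a1b* was -0.49 with the mean of its probes and -0.98 with the percentile over detected probes, and that of *col11a1b* was -0.96 with normexp background correction. In the class 12 of 13 were lower, with a median log2 difference of -0.79, and *col5a3b*, at 0.05, was the exception. The type I chains *col1a1a* and *col1a2* gave -0.91 and -0.89. Of the 13 differences, 12 were larger than the SD between spots and 8 larger than the SD between probes, and 14 of the 18 other probes were lower. Here too the share of all genes past these SDs was not counted.

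The collagens of cartilage, types II, IX, X, XI, and XXVII, were lower on the BBR array by the probe used for each gene. By these probes 11 of 11 were lower in BBR than in HCD, with a median log2 difference of -0.75, and 10 of 11 were higher in HCD than in control, with 0.52. The fibril-forming collagens outside cartilage, types I and V, gave -0.72 and 0.64, so both groups had medians of similar size. Some other probes of the cartilage collagens ran the other way between BBR and HCD, with log2 differences of 1.22 for the dimmer *col2a1a* probe, 1.45 for the dim *col2a1b* probe, and 0.38 for a *col11a1a* probe with 315, 281, and 388. Among the sheet-forming and anchoring collagens, *col4a5* was 1.70-fold lower, *col17a1a* 1.72-fold lower, and *col10a1a* 1.59-fold lower in BBR by the probes used. Other probes of *col17a1a* gave log2 differences of -0.01 and -0.37, and the dimmer probe of *col4a5* gave -0.27. Dimmer probes of *col10a1a* gave larger differences, from -1.31 to -1.06. *col19a1* and *col22a1* were higher, with log2 differences of 0.56 and 0.53.

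Most laminins and both fibronectins again differed little. Of 9 laminins, 5 were lower and 4 higher in BBR than in HCD, while 59.4% of all genes were higher. Their median log2 difference was -0.09, and *lamb4* was lowest at -0.62 on the probe used. Its dim probe gave 0.67, and with the mean of both *lamb4* was at 0.03. *lamc1* was 2.31-fold higher in BBR on the probe used and showed no difference on its marked probe. *fn1a* and *fn1b* gave -0.12 and -0.08, both within the spread between spots.

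**Figure D3:**
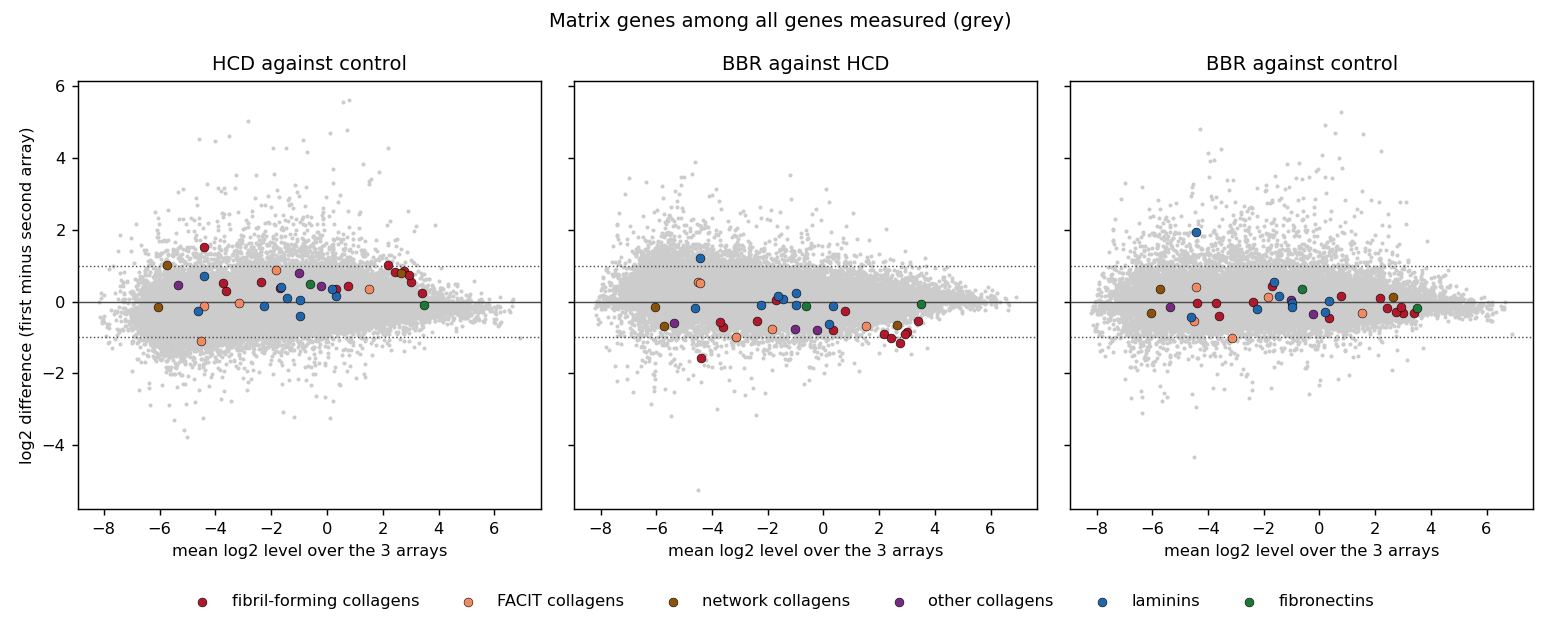
Log2 difference against mean log2 level over the 3 arrays for all genes (grey) and the matrix genes (colored by class) in the 3 comparisons, with dotted lines at 2-fold. The bright fibril-forming collagens lie above the median of all genes for HCD against control and below it for BBR against HCD. They stay inside the full range of the grey cloud. In the brightest of 4 signal classes, all genes ran from -2.34 to 5.61 and from -1.95 to 2.48 in these comparisons. Few genes of that class lay past 2-fold, with 2.40% higher for HCD against control and 0.45% lower for BBR against HCD.

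Between the BBR and control arrays, which shared a slide, few matrix genes differed by 2-fold, and few of all genes did. Here 13 matrix genes were higher and 22 lower in BBR, or 37.1% higher beside 46.3% of all genes. Their median log2 difference was -0.15 against -0.03 over 25087 genes. A single gene was at least 2-fold higher (2.86%) beside 3.81% of all genes, and a single gene was at least 2-fold lower (2.86%) beside 1.27%, with 5.09% of all genes past 2-fold in either direction. The gene higher was *lamc1*, 3.83-fold on the probe used and 0.65 on the log2 scale on its marked probe. The gene lower was *col9a1a*, at 2.04-fold.

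The fibril-forming collagens had a median of -0.15 in this comparison, and their log2 differences ran from -0.45 for *col11a2* to 0.45 for *col5a3b*. Of the 13, 8 lay within the SD between probes of a gene, 0.29, a count not made over all genes. Type I collagen gave 0.10, -0.28, and -0.15 for *col1a1a*, *col1a1b*, and *col1a2* on the probes used. The other usable probes of *col1a1a* gave 0.56 and -0.0006. Cartilage collagens were lower in 9 of 11, with a median of -0.32. *lamb2* was 1.47-fold higher and *lama1* 1.36-fold lower, while *col4a5* differed by 0.05.

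The enzymes and chaperones that make collagen had a smaller median difference than the collagens. Of 28 collagen processing genes measured out of 44 listed, 17 were higher and 11 lower in HCD than in control. Their median log2 difference was 0.10, and 0 were past 2-fold. Of all genes, 37.9% were higher in HCD, 3.71% past 2-fold higher, and 4.06% past 2-fold lower. Some followed the order of the collagens, and these were picked after their values were seen. *fkbp10b*, a procollagen chaperone, had 475 in control, 919 in HCD, and 501 in BBR, and *plod1a*, a lysyl hydroxylase, had 931, 1421, and 969. Others did not, as *sparc*, a collagen-binding secreted protein, had 19885, 19452, and 13919, and *serpinh1b*, a collagen chaperone, had 1108, 1117, and 2001.

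Between BBR and HCD, 17 of the 28 processing genes were lower and 11 higher, with a median of -0.17, while 59.4% of all genes were higher. Past 2-fold, 2 were higher (7.14%) beside 4.52% of all genes, and 0 were lower beside 1.33%. The 2 past 2-fold, *loxl1*, a crosslinking oxidase, and *adamts3*, a procollagen protease, were both higher in BBR, and *adamts3* was not well above background on the HCD array. The crosslinking enzyme *loxl5b* had 27.9, 54.4, and 31.1, close to background.

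Other components of basement membranes numbered 9, of which 7 were higher in HCD than in control, with a median of 0.18, and 8 were lower in BBR than in HCD, with -0.40. Of all genes, 37.9% were higher in HCD than in control and 59.4% higher in BBR than in HCD. None of these 9 passed 2-fold in either comparison, which 7.77% and 5.85% of all genes did. *fras1*, a protein that anchors the epidermis, had 1270, 1446, and 991. The other matrix proteins had no common direction, with 13 of 30 higher in HCD and a median of -0.11. In each of the 2 comparisons with HCD, 3.33% were past 2-fold higher and 6.67% lower. Beside these stood 3.71% and 4.06% of all genes for HCD against control, and 4.52% and 1.33% for BBR against HCD. Of those 30, *lum*, the collagen-binding proteoglycan lumican, had 153, 338, and 101, past 2-fold in both comparisons with HCD. *thbs3b* and *kera*, a thrombospondin and the corneal proteoglycan keratocan, were past 2-fold lower in HCD than in control, with log2 differences of -1.11 and -1.03. Between BBR and HCD, *spp1*, osteopontin, was lower by -1.13 and *fbn2b*, a fibrillin, was higher by 1.04.

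Receptors and matrix proteases were measured in smaller numbers. Of 14 receptors, 9 were higher in HCD than in control, with a median of 0.27. Only *itga11a*, the alpha chain of a collagen-binding integrin, was past 2-fold, at -1.03 (7.14%, beside 4.06% of all genes lower). *itgb1b*, a gene of the integrin beta 1 chain that pairs with it, had 861 in control, 1704 in HCD, and 849 in BBR, and was past 2-fold lower in BBR than in HCD, at -1.09. Of 8 metalloproteinases and inhibitors, 6 were higher in HCD than in control and 6 were lower in BBR than in HCD. Beside these and the receptors, 37.9% of all genes were higher in HCD than in control and 59.4% higher in BBR than in HCD. The exception past 2-fold in the metalloproteinase list was the inhibitor gene *timp2b*, with 522, 1034, and 2238. On the log2 scale it was 1.03 higher in BBR than in HCD and 2.01 higher than in control. In lists this small a single gene weighs much. Between BBR and HCD, where 15 receptors were compared, *itgb1b* made 6.67% of them lower beside 1.33% of all genes. In the same comparison *timp2b* made 12.5% of its list higher beside 4.52%.

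**Figure D4:**
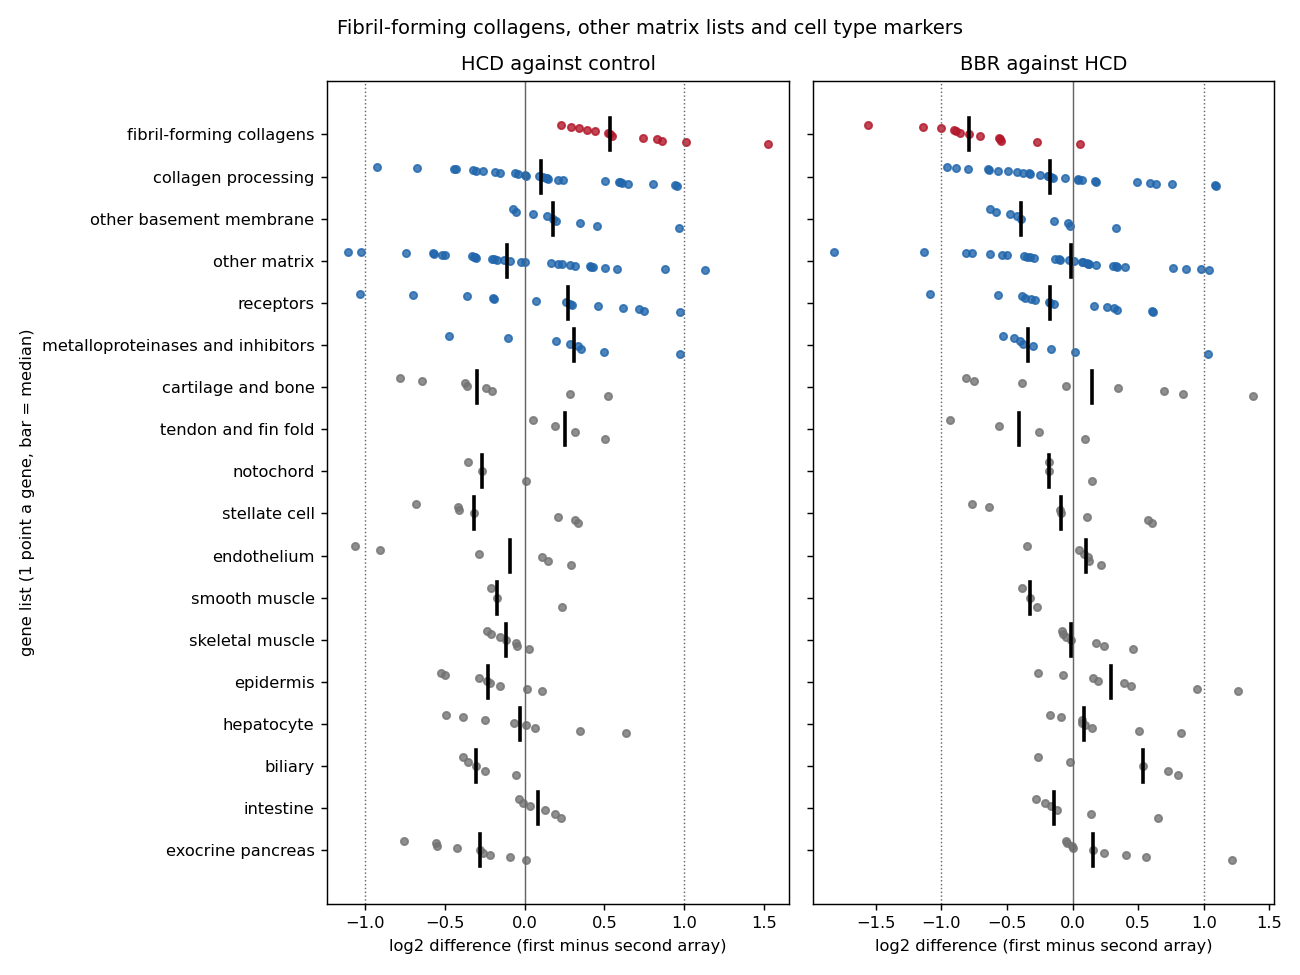
Log2 differences of single genes in the fibril-forming collagens (red), the other matrix lists (blue), and the cell type marker lists (grey), for HCD against control (left) and BBR against HCD (right), with a bar at the median of each list and dotted lines at 2-fold. The fibril-forming collagens all lie above 0 on the left, with a median of 0.54, whereas the medians of the marker lists lie between -0.32 and 0.25.

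Markers of the cells that could supply the collagens were set beside these values. The summed signal of the 8 cartilage and bone genes, relative to the 75th percentile of each array, was 15.3 in control, 18.5 in HCD, and 11.4 in BBR. Within the list, *matn1* and *cnmd* were higher in HCD than in control and lower in BBR than in HCD. *matn1* had 20432, 25075, and 15159, and *cnmd* had 6143, 8893, and 5587. The other genes did not share this order. The values were 650, 381, and 723 for *bglap*, or osteocalcin, and 78.2, 61.2, and 169 for *sp7*, the osteoblast transcription factor, both lowest in HCD, as was *sox9a*, the cartilage transcription factor, with 284, 221, and 298. Of all genes, 47.6% were lowest on the HCD array. *ihha*, a signal of maturing cartilage, had 2288, 2001, and 1619, and *phex*, a bone gene, had 778, 662, and 678. Of cartilage matrix genes outside this list, *matn3a* had 6547, 4421, and 6167, and *matn3b* had 1864, 1503, and 1682. As a whole 2 of the 8 were higher in HCD than in control, with a median log2 difference of -0.30, and 4 of 8 were higher in BBR than in HCD, with a median of 0.15.

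All 4 measured genes of tendon and fin fold were higher in HCD than in control, with a median of 0.25, and 3 of 4 were lower in BBR than in HCD, with -0.41. Of all genes, 37.9% were higher in HCD than in control and 59.4% higher in BBR than in HCD. *tnmd*, tenomodulin of tendon, had 399, 569, and 315, and the summed signal of the list was 12.01, 14.61, and 11.55. Of the stellate cell list, 7 genes were measured, 3 of them higher in HCD, with a median of -0.32 and a summed signal of 14.5, 10.8, and 10.9. This sum rested mainly on *desma*, *gfap*, and *desmb*, with 14547, 7681, and 5547 in control and 10963, 5806, and 3480 in HCD. The 3 higher genes were *hand2*, *lrata*, and *colec11*, with log2 differences of 0.32, 0.34, and 0.21, while *rgs5a* gave -0.32. The list thus had no common direction, and its sum and median do not stand for all its genes. *hand2*, a defining gene of stellate cells in zebrafish, had 750, 939, and 932, while *pdgfrb* was not well above background on any array. *acta2*, the actin of activated stellate cells and of smooth muscle, had 18716, 16664, and 14112. The part of any of these cell types in the collagen differences was not tested.

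The other marker lists did not share the order of the collagens in their summed signal. Skeletal muscle had 142, 129, and 136, epidermis 108, 91.3, and 118, exocrine pancreas 325, 276, and 299.6, and hepatocytes 87.0, 84.8, and 92.6, all lowest in HCD. That was also the most common place of HCD among all genes, of which 47.6% were lowest and 25.5% highest on that array. Median log2 differences between HCD and control were -0.12, -0.23, -0.28, and -0.03 for these lists. The endothelium, notochord, smooth muscle, and biliary lists had -0.09, -0.27, -0.18, and -0.30, and the intestine list had 0.08.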

How the data were processed

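The authors deposited spot tables of 3 single-colour Agilent zebrafish arrays, from which the background-subtracted intensity of Feature Extraction (11.5.1.1 in the file headers, 10.7 in the submitters' notes) was used. A table of log2 values made by the authors in GeneSpring 13 matched this intensity once its 75th percentile on the array was subtracted. The same scaling was applied here, with the percentile taken over all spots but the controls. Probes marked as outliers on an array (2657) counted for the percentile but were left out of the comparisons. Where a probe was not well above background on an array, the higher of its own and the lowest such signal stood in. Printed intensities are unscaled, and differences are scaled. Sequences were not used here.

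RefSeq accessions were matched to a gene table of GRCz12tu for names only, which named 26094 of 43603 probes. Groups came from the labels, with 1 array each, so no test was run and genes were called at 2-fold, the threshold of the methods. The number of arrays limits the precision. Classes, gene lists, and members were chosen with earlier results of these data known. Named were genes past 2-fold in any comparison, the brightest of each class, and all collagen I and IV, laminin, and fibronectin genes. Any other gene was chosen after its values were seen or to complete the list.

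Alternatives were the array median, the percentile over detected probes, quantile normalization, cyclic loess with 3 iterations, normexp with offset 50 (on median signals), detected genes only, no filter, the mean of probes, outliers kept, the authors' values, and 1.5-fold and 3-fold. Counts under these settings for the fibril-forming and cartilage collagens were added after seeing the data. Calculations used Python 3.11.15, numpy 2.4.6, pandas 2.3.3, matplotlib 3.10.9, R 4.3.3, and limma 3.58.1, and the steps were tested on simulated data.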

Additional observations from a re-analysis of the deposited data

How the results depend on the processing

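The median log2 difference of the 35 matrix genes was 0.33 to 0.50 for HCD against control, -0.70 to -0.36 for BBR against HCD, and -0.20 to -0.09 for BBR against control over the 10 alternatives, and for BBR against HCD it moved from -0.56 to -0.36 with the mean of the probes. Scaling shifted the median of all genes by up to 0.14, and relative to it the matrix genes lay 0.46 to 0.58 higher in HCD than in control and -0.66 to -0.48 in BBR against HCD. All 13 fibril-forming collagens were higher in HCD than in control under each of the 10 alternatives. Of the 35 genes, 26, 26, and 28 kept their sign under all 10 in the 3 comparisons.

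Counts past 2-fold were small and depended on the setting. For HCD against control, the 3 genes higher became 5 with cyclic loess, 1 with normexp or outliers kept, 10 at 1.5-fold, and 0 at 3-fold, and the 1 lower became 0 with the array median, quantile, cyclic loess, normexp, and 3-fold. For BBR against HCD, the 3 lower became 6 with the array median, 5 with quantile, cyclic loess, or the mean of probes, 17 at 1.5-fold, 2 with outliers kept or the percentile over detected probes, and 0 at 3-fold. The 1 higher, *lamc1*, became 0 with quantile, cyclic loess, normexp, outliers kept, and 3-fold. With outliers kept, the brighter marked probe replaced it and its log2 difference was -0.0056. For BBR against control, the 1 higher became 0 with outliers kept, and the 1 lower became 0 with cyclic loess, normexp, and 3-fold. With outliers kept, the calls lost were those of *lamc1*, of *col1a1b*, and, for HCD against control, of *col1a1a* and *col11a1b*. In each of these a brighter marked probe replaced the one used, with log2 differences of 0.33 for *col1a1a* and 0.87 for *col11a1b*. For the other settings the cause was not tested. No paired analysis was possible because each group has 1 array, and for the same reason no replicate could be left out. Probes near background, as for *col8a1a*, *col8a2*, and *col28a2a*, limit what their differences can show.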
